A study of Mus musculus with 2 samples.

Results

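Choroid plexus epithelial cells were examined in single-cell RNA-seq libraries of the mouse dorsal meninges, taken 1 week after a mild closed-skull traumatic brain injury (TBI) or a Sham procedure. The cells were chosen by their own transcripts. A cell had to hold at least 10 UMIs (unique molecular identifiers, each standing for 1 captured RNA molecule) of transthyretin (*Ttr*) and at least 1 UMI of at least 3 of 7 further genes, namely *Enpp2*, *Kl*, *Clic6*, *Folr1*, *Prr32*, *Ppp1r1b* and *2900040C04Rik*. Cells were first filtered for 150 to 5000 genes, at most 20% of UMIs from mitochondrial genes and at most 5% from hemoglobin genes. The rule found 184 of 5816 filtered cells (3.16%). The Sham library gave 58 of 2043 filtered cells and the TBI library 126 of 3773.

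Both groups were male wild-type C57BL/6 mice (C57BL/6J in the study's methods), with no transgene or deleted allele. Their age was labelled as 10 weeks in one field and 10 to 12 weeks in another. Their labels differed only in the procedure, but each group was also its own pool and library, which cannot be told apart from the procedure. The meninges of 5 mice were pooled into 1 suspension per group, digested with collagenase, sorted for live single cells and made into 1 library. Each group is therefore 1 sample, no test between Sham and TBI could be made, and the intervals below are exact 95% binomial or Poisson intervals that cover counting error only. The Sham library held 2699 barcodes with 9527334 UMIs, and the TBI library held 4349 barcodes with 15011079 UMIs. The 2 libraries shared 20 barcodes, none of which was a choroid plexus cell in both, and 1 choroid plexus cell sat on a barcode also seen in the other library.

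The choroid plexus is a folded epithelial sheet over a vascular core that hangs in the brain ventricles. Its epithelium moves sodium, chloride, bicarbonate and water from blood to ventricle to make cerebrospinal fluid, and its tight junctions form the barrier between blood and that fluid. It also secretes carrier proteins, above all transthyretin, which carries thyroid hormone. The labels name the collected tissue as dorsal meninges and do not mention choroid plexus.

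*Ttr* took 21.7% of all UMIs of the Sham choroid plexus cells and 22.8% of those of the TBI cells. Per cell, *Ttr* counts in Sham had a lowest value of 16, a median of 502.5 and a highest value of 10567 UMIs. The same values in TBI were 12, 788.5 and 7292 UMIs, so the 2 libraries overlapped over nearly their whole range. As a share of a cell's own UMIs, *Ttr* ran from 1.26% to 45.1% in Sham, with a median of 19.1%, and from 1.22% to 46.5% in TBI, with a median of 21%. All 7 other genes of the rule were present in 22 Sham and 49 TBI cells, and only 3 were present in 5 Sham and 8 TBI cells.

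The edge of the rule was thin. With *Ttr* at 10 UMIs or more and only 2 of the 7 genes, 3 Sham and 9 TBI cells stayed outside, at median *Ttr* counts of 134 and 135 and median totals of 910 and 774 UMIs. Just inside, the cells with 3 of the 7 genes had median *Ttr* counts of 176 in Sham and 358 in TBI. Below the *Ttr* limit, 0 Sham and 6 TBI cells had 3 or more of the 7 genes, while 1 Sham and 3 TBI cells entered with 20 or fewer *Ttr* UMIs. A further 3 barcodes in each library met the gene rule and failed a filter on genes, mitochondrial or hemoglobin UMIs.

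The label was checked with 30 choroid plexus markers that the rule did not use. In all, 29 had at least 10 UMIs in the chosen cells, 28 of those 29 had a higher level than in all other filtered cells, and the median of the 29 ratios was 73.9. *Kcne2*, a potassium channel subunit, stood at 368 CPM in Sham (UMIs of the gene per 1000000 UMIs of the cells) and 355 CPM in TBI, against 0.266 and 0.38 CPM in the other cells. *Kcnj13*, an inward rectifier potassium channel of transporting epithelia, stood at 560 and 369 CPM. *Calml4* was found in 79.3% of Sham and 88.1% of TBI cells, and *Sostdc1*, a secreted antagonist of BMP and Wnt signals, in 79.3% and 76.2%. The exception among the 29 was *Aqp1*, the water channel of the choroid plexus, at 58.9 and 47.8 CPM in the chosen cells and 64.7 and 74 CPM in the rest. *Epcam* had 4 UMIs in all. As the chosen cells were picked by co-expressed genes, their levels against other cells are a description.

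Markers of other cell types were low but not evenly spread between the libraries. At least 3 markers of another class were present in 3 Sham cells (1 pinealocyte, 1 fibroblast and 1 macrophage) and in 19 TBI cells, of which 9 met the fibroblast, 8 the macrophage, 3 the endothelial and 1 the pinealocyte markers, a cell being able to meet more than 1 class. The 5 cells predicted to be doublets, all in TBI, were among those 19. The 8 macrophage markers summed to 124 CPM in Sham and 759 CPM in TBI, and the 8 fibroblast markers to 100 and 664 CPM. *Ptprc*, the pan-leukocyte marker CD45, had a UMI in 1 Sham and 4 TBI cells. Of 12 ependymal markers, *Tmem212*, *Ccdc153*, *Nnat* and *Acta2* were at 0 UMIs in both libraries. The other 8 had at least 10 UMIs, 6 of them were higher than in other cells, and the list summed to 5048 CPM in Sham and 5363 CPM in TBI, mostly from *Mt3*, against 132 and 237 CPM in other cells. *Foxj1* and *Dynlrb2* belong both to this list and to the cilia genes below.

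**Figure D1:**
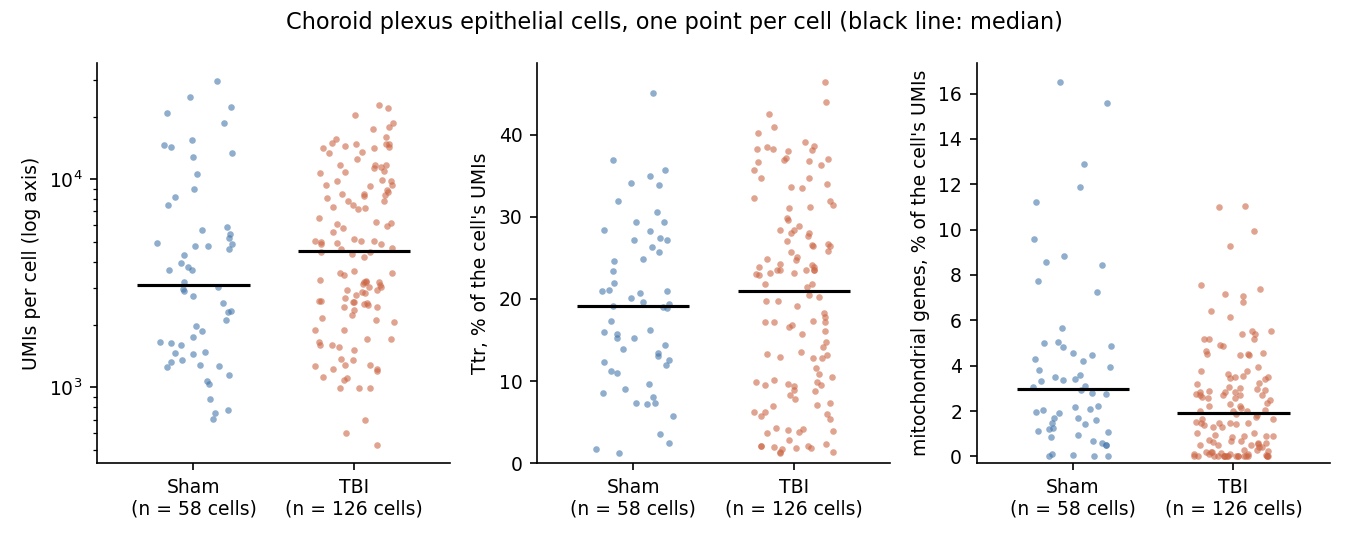
UMIs per cell (log axis), *Ttr* as a percent of the cell's UMIs and mitochondrial genes as a percent of the cell's UMIs, with a point per choroid plexus cell and a black line at the median. The 58 Sham and 126 TBI cells overlap over most of their ranges, the highest mitochondrial share is 16.5% in Sham and 11% in TBI, and more TBI cells lie at or near 0% mitochondrial UMIs.

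Choroid plexus cells made up 2.84% of Sham filtered cells (interval 2.16 to 3.65%) and 3.34% of TBI filtered cells (2.79 to 3.96%). The difference was 0.501 percentage points and the intervals overlapped. Its size and sign varied with the cells counted, and it was 1.18 points with fibroblast-marker cells left out of the denominator. Among filtered cells without a *Ptprc* UMI the TBI share was lower by 0.42 points, and with the cells under 0.3% mitochondrial UMIs left out it was lower by 0.0498 points. The cells held 4.32% of the filtered UMIs of the Sham library and 5.7% of those of TBI. Their depth had a lowest value of 702, a median of 3111.5 and a highest value of 29604 UMIs in Sham, and 528, 4541 and 22820 UMIs in TBI, so TBI cells were on the whole more deeply sampled although the deepest cell was in Sham.

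*Ttr* was also found in droplets that were not choroid plexus cells. Over all other filtered cells it stood at 111 CPM in Sham (103 to 118) and 291 CPM in TBI (282 to 301), and 16.3% and 37.7% of those cells had at least 1 *Ttr* UMI. Cells with B cell markers, which should lack the gene, held 66.8 CPM in Sham and 168 CPM in TBI, at median depths of 3123 and 2725.5 UMIs. The TBI level outside the chosen cells was 2.63 times the Sham level (2.44 to 2.84), 2.5 times in B-marker cells and 2.6 times in barcodes dominated by hemoglobin, but 1.4 times in fibroblast-marker cells. A *Ttr* count of a few UMIs is read here as background. *Enpp2*, the most abundant of the other rule genes, stood at 20.1 and 34.9 CPM in the other filtered cells, with a UMI in 5.34% and 6.83% of them. The remaining 6 were lower there, for example *Kl*, the klotho coreceptor, at 1.33 and 2.43 CPM and *Ppp1r1b* at 3.72 and 1.83 CPM.

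The 20 most abundant genes took 32.9% of the UMIs of the chosen cells. Levels between genes are given as shares of 3′-end UMIs, not divided by transcript length. After *Ttr*, at 224800 CPM over both libraries, came *Gm42418*, a locus that overlaps ribosomal RNA repeats, at 21470 CPM. *Enpp2* (autotaxin, which makes lysophosphatidic acid; chr15:54838901-54952892, minus strand, mm10) followed at 17501 CPM. *Mt3*, a metallothionein that binds zinc and copper, reached 4607 CPM against 25.8 CPM in other cells. The remaining places went mostly to housekeeping genes and to energy metabolism, with 6 mitochondrially encoded genes and the nuclear genes *Cox8a*, *Atp5g1*, *Atp5g3* and *Cox4i1*.

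The ratio to all other filtered cells named a different set. *Prr32*, a proline-rich protein used by the rule, led at 2227 times, followed by *Ttr* at 997, *Kcne2* at 991, *2900040C04Rik*, an annotated lincRNA, at 801, *Gm29538* at 716 and *Atp2b3* at 680. *Atp2b3* encodes a calcium pump of the plasma membrane and was not used by the rule. *Enpp2* stood at 593 times and *Htr2c*, a serotonin receptor, at 592 times. Genes of motile cilia took several places in the same 20, with *Dynlrb2* at 366, *Ccdc113* at 340 and *Foxj1* at 283 times.

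**Figure D2:**
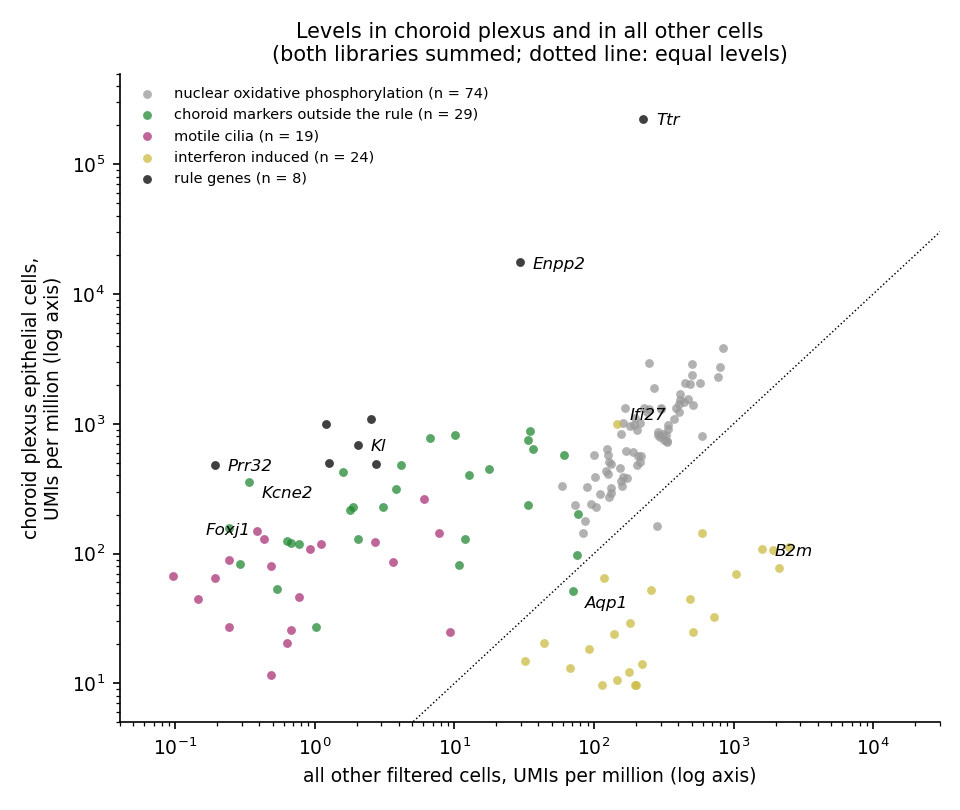
Level in choroid plexus cells against the level in all other filtered cells, both in CPM on log axes, with a point per gene of 5 lists that had at least 10 UMIs. Rule genes, choroid markers and cilia genes lie above the dotted line of equal levels apart from *Aqp1*, 73 of 74 nuclear oxidative phosphorylation genes lie above it, and 23 of 24 interferon induced genes lie below it.

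The genes that move ions for fluid secretion were on the whole lower in TBI than in Sham cells. Of 32 genes, 26 had at least 10 UMIs and 22 of these had a log2 ratio of TBI over Sham below 0, with a median of −0.586. Over all 7656 genes with at least 10 UMIs the median was −0.0444. The choroid plexus markers outside the rule, which share *Car12* with this list, were also lower. Their median was −0.317, with 23 of 29 below 0. A wider set was nearly level. It held the 226 genes with at least 50 UMIs and a level at least 10 times that of other filtered cells. Its median was −0.0166, with 118 of 226 below 0. The ion transport list summed to 7195 CPM in Sham and 5364 CPM in TBI, a log2 ratio of −0.424 (−0.496 to −0.351). In all other filtered cells the same sum was 1192 CPM in Sham and 1683 CPM in TBI, a log2 ratio of 0.498. Those other cells were a different mix in the 2 libraries. Fibroblast-marker cells were 110 of 2043 filtered cells in Sham and 757 of 3773 in TBI. The 8 fibroblast markers summed to 1483 and 4861 CPM in the other cells. The part of this mix in the ratio was not tested. Over the whole transcriptome, 40 of 2635 genes with at least 50 UMIs were at least 2-fold higher in TBI (1.52%) and 38 were at least 2-fold lower (1.44%). Of the 22 transport genes with at least 50 UMIs, 3 were at least 2-fold lower and 0 were 2-fold higher.

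The 3 were *Atp2b3*, *Slc12a2* and *Car12*. *Atp2b3* (chrX:73503086-73571005, plus strand, mm10) stood at 212 CPM in Sham, with a UMI in 22 of 58 cells, and at 73 CPM in TBI, with a UMI in 34 of 126 cells, and its log2 ratio was −1.54 (−2.06 to −1.02). *Slc12a2*, the sodium, potassium and chloride cotransporter of the ventricular face, stood at 188 CPM in Sham and 83.1 CPM in TBI (log2 −1.18, −1.70 to −0.66). *Car12*, a carbonic anhydrase on the cell surface, stood at 135 and 61.7 CPM (−1.14, −1.75 to −0.52). A UMI of *Slc12a2* was found in 36.2% of Sham and 36.5% of TBI cells, and of *Car12* in 27.6% and 27%. For these 2 genes the libraries differed in UMIs per positive cell, while the raw shares of positive cells were close. The TBI cells were more deeply sampled, at a median of 4541 UMIs against 3111.5 in Sham. The raw shares are therefore not at equal depth and do not show equal shares of expressing cells. A single Sham cell held 28.1% of the *Slc12a2* UMIs and 26.1% of the *Car12* UMIs of its library.

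*Atp1b1*, the beta subunit of the sodium pump and the most abundant gene of the list, stood at 1004 CPM in Sham and 743 CPM in TBI (log2 −0.44, −0.63 to −0.24). *Fxyd1*, a regulator of the pump, differed by less than counting error, at 736 and 711 CPM (−0.05, −0.27 to 0.17). The bicarbonate transporters *Slc4a5* and *Slc4a10* had log2 ratios of −0.76 and −0.96. The channels differed, with *Kcnj13* at −0.60 (−0.87 to −0.33) and *Kcne2* at −0.06 (−0.36 to 0.26). Among carbonic anhydrases, *Car2* of the cytosol was at −0.21 and *Car14* of the membrane at 0.44, with an interval of −0.04 to 0.98.

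The deepest Sham cell carried a sizeable part of several of these genes, 22.9% of the *Atp1b1* and 18.9% of the *Kcnj13* UMIs, so the list was recomputed without the deepest cell of each library. The median was then −0.443, with 22 of the 26 genes below 0. *Atp2b3* was then at −1.44, while *Slc12a2* at −0.87 and *Car12* at −0.85 were no longer past 2-fold. *Slc12a2* was also short of 2-fold with thinning to 2000 UMIs (−0.72), and *Car12* by the mean over cells of counts per 10000 (−0.41) and without the cells under 0.3% mitochondrial UMIs (−0.94). The list median was −0.737 without the cells that met another class's markers, −0.451 without the cells under 0.3% mitochondrial UMIs and −0.37 with each cell thinned to 2000 UMIs, over the 22 genes that kept 10 UMIs. All of these medians were below 0.

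Transporters for vitamins, hormones, metals and drugs had a median log2 ratio of −0.359 over 25 genes, 17 of them below 0 and none past 2-fold among the 13 with at least 50 UMIs. The median was −0.216 without the deepest cell of each library. *Slco1c1*, which carries thyroxine, stood at 256 CPM in Sham and 142 CPM in TBI (−0.85, −1.26 to −0.43), but its ratio was 0.21 with each cell thinned to 2000 UMIs. *Slc39a12*, a zinc importer, stood at 115 and 63 CPM (−0.87). *Folr1*, the folate receptor that the rule used, was at −0.49 (−0.73 to −0.23). *Slc6a13*, *Lrp2* and *Atp7b* were at 0 UMIs in the chosen cells of both libraries.

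The secreted proteins had a median of −0.228 over 27 genes and summed to 13244 CPM in Sham and 11646 CPM in TBI. The median was −0.0751 without the cells under 0.3% mitochondrial UMIs, and its direction turned to 0.265 over the 18 genes left with thinning to 2000 UMIs. *Igfbp2*, which binds insulin-like growth factors, stood at 892 and 536 CPM (log2 −0.74, −0.95 to −0.52), and the growth factor *Igf2* at 286 and 166 CPM (−0.78). *Clu* (clusterin, a secreted chaperone) was closer to level, at 2135 and 1889 CPM (−0.18). *Ptgds*, the prostaglandin D synthase that is also a carrier in cerebrospinal fluid, was level at 1805 and 1864 CPM (0.05, −0.09 to 0.18). *Trf* (transferrin, the iron carrier) was higher in TBI, at 100 and 188 CPM (0.89, 0.36 to 1.49).

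Of the 18 secreted genes with at least 50 UMIs, 0 were at least 2-fold lower in TBI. The 3 that were at least 2-fold higher, against 1.52% of all genes, were *Gpx3*, *Igfbp4* and *Igfbp5*. Their TBI UMIs were concentrated, with 69.1% of *Gpx3* and 62.1% of *Igfbp5* in 1 cell each. Without the cells that met another class's markers the log2 ratio of *Gpx3* was 0.84 in place of 4.01, that of *Igfbp5* 1.77 in place of 3.36 and that of *Igfbp4* −0.05 in place of 1.31. All 3 had a higher level in the other filtered cells than in choroid plexus cells, and in TBI *Igfbp5* stood at 1341 CPM there.

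Epithelial junction genes were sparse, and 14 of 21 had at least 10 UMIs. *Cldn2*, the pore-forming claudin of leaky epithelia, stood at 61.8 CPM in Sham and 50.4 CPM in TBI against 0.266 and 0.685 CPM in other cells. *Cldn1*, a sealing claudin, had 24 Sham and 19 TBI UMIs, or 70.7 and 23.9 CPM (log2 −1.56, −2.51 to −0.63). *Cldn5* and *Cdh1* were at 0 UMIs of 1133739, which allows up to 2.65 CPM over both libraries. *Krt8* and *Krt18*, the keratins of simple epithelia, had log2 ratios of 0.97 (0.37 to 1.66) and 0.36 (0.08 to 0.65).

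Receptors varied in sign. Of the 6 with at least 50 UMIs, 0 were at least 2-fold higher in TBI and 1 was at least 2-fold lower, against 1.44% of all genes. It was *Igf2r*, at 106 CPM in Sham and 51.6 CPM in TBI (log2 −1.04). Its log2 ratio was −1.22 without the cells that met another class's markers, and ran from −1.60 to −0.52 over all settings. *Prlr*, the prolactin receptor, stood at 321 and 186 CPM (−0.79, −1.15 to −0.41). The coreceptor *Kl* stood at 931 and 589 CPM (−0.66, −0.87 to −0.45), but the rule used it to choose the cells. *Lepr*, the leptin receptor, had 16 Sham and 10 TBI UMIs (−1.88, −3.21 to −0.68). *Htr2c* went the other way, at 130 and 169 CPM (0.37, −0.12 to 0.91), within counting error. The 20 receptors with at least 10 UMIs had a median of 0.109, which was −0.819 without the cells that met another class's markers.

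Transcription factors that differ along the neural axis gave a partial pattern. *Msx1* (783 and 931 CPM) and *Otx2* (218 and 235 CPM) were the most abundant, and *Lmx1a*, *Zic1* and *Zic4* were present at lower levels, the last 2 at levels near those of other cells. *Otx1* had 32 UMIs and *Emx1*, a factor of the dorsal forebrain, 11 UMIs, with 0 *Emx1* UMIs in other cells. Of 28 factors, 15 were at 0 UMIs, among them the midbrain and hindbrain factors *En1* and *En2* and all of *Hoxa2* to *Hoxa5*, *Hoxb3* to *Hoxb5*, *Hoxd3* and *Hoxd4*. Each of these is below 2.65 CPM at this depth.

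Genes of motile cilia were part of the choroid plexus profile. Of 25 genes, 19 had at least 10 UMIs, all 19 were higher than in other cells and 18 were at least 10 times higher. *Foxj1*, the master regulator of motile ciliogenesis, stood at 118 CPM in Sham and 135 CPM in TBI, with a UMI in 44.8% and 50.8% of cells. *Dynlrb2*, a dynein light chain, stood at 133 and 157 CPM. The median log2 ratio of TBI over Sham was 0.183, and 13 genes lay above 0 and 6 below. None of the 14 with at least 50 UMIs passed 2-fold, against 1.52% of all genes higher and 1.44% lower. The median was 0.0488 without the cells under 0.3% mitochondrial UMIs.

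Cilia genes share a promoter element that RFX factors read, the X-box. Its core letters GTTGCC, or GGCAAC when read from the other strand, were searched in RefSeq promoters of GRCm38.p6 from 250 bases before to 50 bases after each start. At least 1 match was present in 13 of the 21 cilia genes with a promoter in the table (61.9%) and in 14.1% of all 27025 promoters. The choroid plexus markers had it in 13.8% (4 of 29) and the oxidative phosphorylation genes in 12.9% (8 of 62). The 5 windows below show the letters in context, in capitals and in the direction of the gene, for 3 cilia genes found in these cells and 2 found at 0 UMIs.
Dynlrb2, chr8:116504952-116504981, plus strand: acttcctgcctgGTTGCCtagcaacggggg
Mlf1, chr3:67373980-67374009, plus strand: gtgtttacagagGTTGCCatagcagccgag
Tekt1, chr11:72361900-72361929, minus strand: tcttctaactagGGCAACgttgcgtccgtc
Ccdc153, chr9:44240513-44240542, plus strand: ctgagttttccaGTTGCCtggacaacgtgc
Fam183b, chr11:58802010-58802039, minus strand: agcctgggcgctGTTGCCtagagacagaaa
*Dynlrb2*, *Mlf1* and *Tekt1* had 170, 134 and 76 UMIs in the chosen cells, while *Ccdc153* and *Fam183b*, with the same letters, had none. A match in a promoter is a description of its letters and not of a bound site.

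Nuclear genes of oxidative phosphorylation were high in both groups. All 74 had at least 50 UMIs, 73 of them were higher than in other cells, and the median ratio was 3.31. They summed to 73292 CPM in Sham and 73969 CPM in TBI, against 20373 and 20067 CPM in other cells. The log2 ratios of TBI over Sham lay 37 below and 37 above 0. This split moved with the cells kept, to 9 of 74 below 0 without the cells that met another class's markers (median 0.19) and 54 of 74 without the cells under 0.3% mitochondrial UMIs (median −0.074).

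The 13 mitochondrially encoded genes differed more. They summed to 30060 CPM in Sham and 25493 CPM in TBI, a log2 ratio of −0.238 (−0.272 to −0.203), and 12 of 13 were below 0, with a median of −0.286. The median was −0.681 without the cells that met another class's markers, −0.206 among cells at 1% or more mitochondrial UMIs and −0.0685 without the cells under 0.3%, with 13, 12 and 8 of 13 below 0. The last 2 choose cells by the quantity compared. In all other filtered cells the sum was 19642 CPM in Sham and 28877 CPM in TBI. The median mitochondrial share of choroid plexus cells was 2.98% of a cell's UMIs in Sham and 1.93% in TBI, while in other filtered cells it was 1.92% and 2.52%.

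Some cells had almost no mitochondrial RNA. Mitochondrial UMIs were under 0.3% in 5 of 58 Sham choroid plexus cells (8.62%, 2.86 to 19%) and in 30 of 126 TBI cells (23.8%, 16.7 to 32.2%). The limit of 0.3% was set after the values were seen. In other filtered cells the share was 4.58% in Sham and 2.28% in TBI, and among macrophage-marker cells it was 5.28% and 1.72%. Pinealocyte-marker cells were few, with 2 of 8 in Sham (25%, 3.19 to 65.1%) and 2 of 26 in TBI (7.69%, 0.946 to 25.1%). None of the 35 choroid plexus cells met another class's markers, while the 19 TBI cells that did were all at 1% or more. The 35 cells were also shallower, with median totals of 2337 UMIs in Sham and 3107 UMIs in TBI. The choroid plexus cells at 1% or more had medians of 2975 and 5583 UMIs. The parts of depth and of the cells with other classes' markers in the values below were not tested.

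Several other lists were also lower in those cells. A list of 24 genes of endoplasmic reticulum (ER) chaperones and the ER stress response summed to 1191 CPM in TBI cells under 0.3% and 4160 CPM in TBI cells at 1% or more. The Sham values were 1529 and 5185 CPM. Secreted proteins stood at 4299 and 13900 CPM in TBI, and *Ttr* itself at 123924 and 257850 CPM. *Enpp2* stood at 4024 and 19757 CPM, and *Psap* (prosaposin, a lysosomal precursor) at 282 and 1527 CPM.

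The nuclear genes of oxidative phosphorylation were higher there, as were cilia genes in TBI. Oxidative phosphorylation genes summed to 101192 CPM in TBI cells under 0.3% and 66487 CPM at 1% or more, and cilia genes to 2516 and 1482 CPM. The median log2 ratio of the low cells over the rest in TBI was −1.94 for ER genes, −1.37 for secreted proteins, −1.16 for ion transport and −1.07 for solute transport, against 0.947 for cilia genes, 0.59 for oxidative phosphorylation and 0.416 for all genes without the mitochondrially encoded. The Sham medians had the same signs, at −0.864, −0.403, −0.872, −0.851, 0.131, 0.532 and 0.345, from 5 low cells. The Sham cilia median was below that of all genes, with 7 of 14 genes below 0. Epithelial junction genes had medians of 0.116 in TBI and −0.0777 in Sham, interferon induced genes −0.974 and −0.488, and stress genes 0.166 and 0.498. In TBI the macrophage markers had a median of −3.62 and the fibroblast markers one of −1.99. Other cells varied. In macrophage-marker cells the ER genes stood at 4891 CPM under 0.3% and 4514 CPM at 1% or more in Sham, and at 4644 and 4266 CPM in TBI. Over all other filtered cells of TBI the ER genes stood at 3015 and 4305 CPM and the secreted proteins at 14184 and 20715 CPM. The same values in Sham were 3539 and 3805 CPM for ER genes and 18849 and 13097 CPM for secreted proteins, so the secreted proteins were lower in low cells of TBI and higher in those of Sham.

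Across all choroid plexus cells the relation was also present, except for cilia in Sham. The Spearman correlation of the mitochondrial share with the ER share was 0.46 over 58 Sham cells and 0.594 over 126 TBI cells, and with the secreted share it was 0.468 and 0.675. With oxidative phosphorylation it was −0.537 and −0.547, and with cilia genes −0.056 and −0.476. The cells of a library share its depth and its free RNA, and shares of 1 total are not independent of each other, so these are descriptions.

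**Figure D3:**
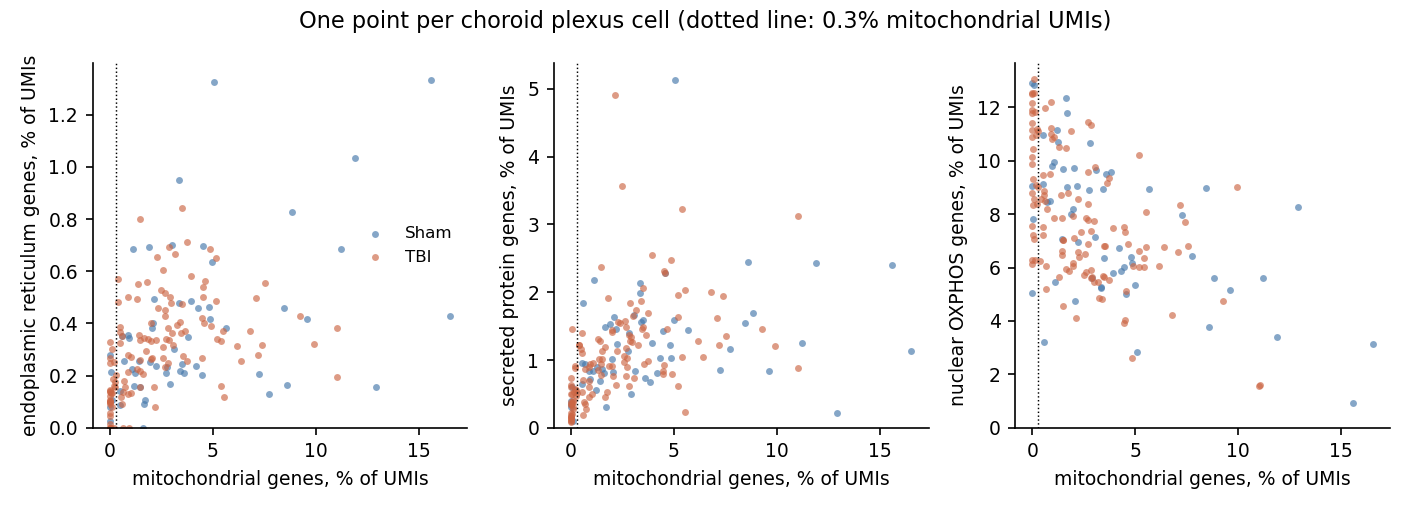
Share of a cell's UMIs from ER genes, secreted protein genes and nuclear oxidative phosphorylation (OXPHOS) genes against the share from mitochondrial genes, all in percent, with a point per choroid plexus cell and a dotted line at 0.3%. Cells left of the dotted line lie mostly low in the ER and secreted shares and high in the oxidative phosphorylation share, with single cells at higher mitochondrial shares that are as low.

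The ER genes were also lower in TBI as a whole, with a median log2 ratio of −0.394 over 19 genes and 16 of them below 0. *Hsp90b1*, an ER chaperone, stood at 1034 and 735 CPM (−0.49, −0.69 to −0.30), *Calr*, a calcium-binding chaperone, at 333 and 215 CPM (−0.63) and *Canx*, its membrane-bound relative, at 259 and 169 CPM (−0.62). The median was −0.21 without the cells under 0.3% mitochondrial UMIs and −0.245 among cells at 1% or more. The difference between the groups was smaller without the low cells and kept its sign.

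*Malat1*, an abundant nuclear noncoding RNA (chr19:5795690-5802672, minus strand, mm10), was scarce in choroid plexus cells. At least 1 UMI was present in 34.5% of Sham cells (22.5 to 48.1%) and 59.5% of TBI cells (50.4 to 68.2%), against 90.4% and 95.2% of other filtered cells. Pinealocyte-marker cells of TBI had *Malat1* in 61.5% of 26 cells (40.6 to 79.8%) at 445 CPM, and those of Sham in 62.5% of 8 cells (24.5 to 91.5%) at 36918 CPM. With each cell thinned to 2000 UMIs, which left out 21 Sham and 26 TBI cells, the shares were 18.9% and 38%. Its level was 330 CPM in Sham and 1468 CPM in TBI, and 9402 and 12454 CPM in other cells. *Neat1*, another nuclear noncoding RNA and named after its values were seen, stood at 14.7 and 36.5 CPM against 153 and 214 CPM.

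The higher *Malat1* level in TBI (log2 2.15, 1.87 to 2.45) came from few cells. A TBI cell held 433 of the 1166 UMIs, and without the cells that met another class's markers the log2 ratio was 0.19. It was 1.28 when cells with 50 or more *Cd74* UMIs, which include a Sham cell with 62 *Malat1* UMIs, were also left out.

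**Figure D4:**
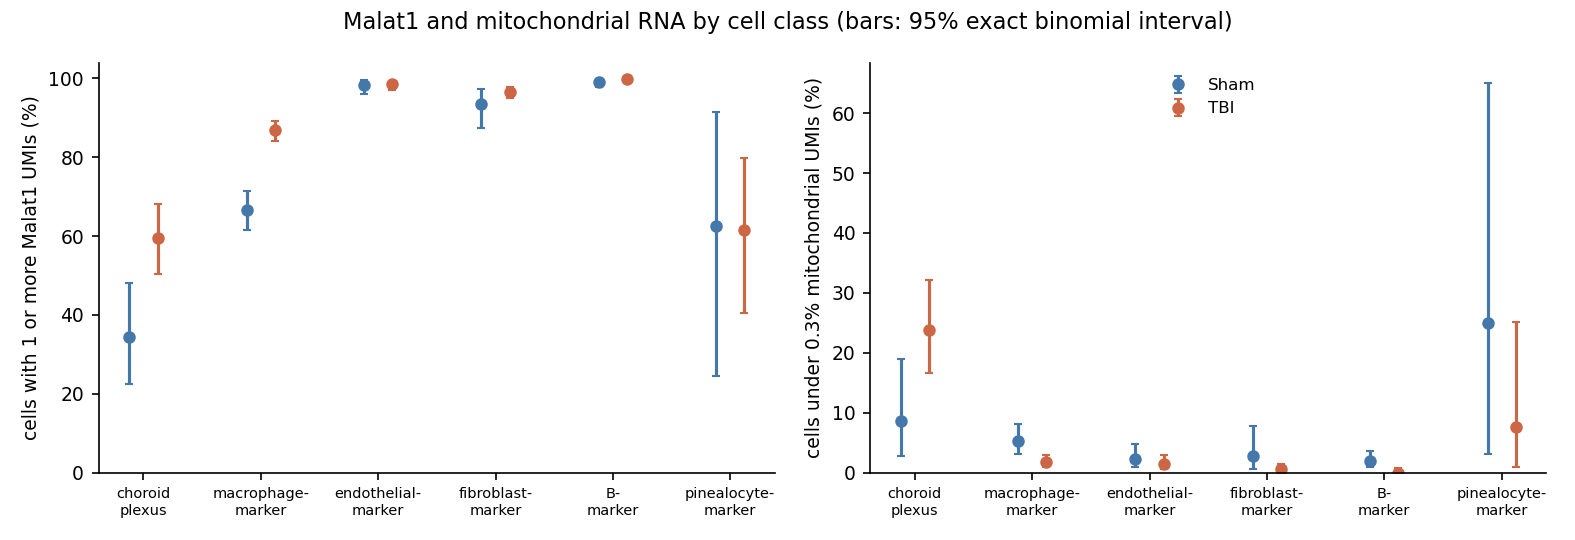
Left, percent of cells with at least 1 *Malat1* UMI, and right, percent of cells under 0.3% mitochondrial UMIs, by cell class in Sham (blue) and TBI (red), with exact 95% binomial intervals as bars. The *Malat1* percent of choroid plexus cells is below those of macrophage, endothelial, fibroblast and B-marker cells in both libraries, and the 23.8% of TBI choroid plexus cells under 0.3% is above all of theirs, while the few pinealocyte-marker cells have intervals that overlap those of choroid plexus cells.

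The 40 genes at least 2-fold higher in TBI were mostly not choroid plexus genes. In all, 25 of the 40 had a higher level in the other filtered cells, as had 33.6% of all 2635 genes, and 5 had at least 50% of their UMIs in 1 cell. The complement genes *C1qa*, *C1qb* and *C1qc* and the chemokine *Pf4*, all macrophage markers, and the fibroblast genes *Mgp* and *Col1a1* belonged to the 10 largest. *C1qb* had 0 Sham and 115 TBI UMIs, 53 of them in 1 cell, and *Mgp* 6 and 276 UMIs, 196 of them in 1 cell. Without the cells that met another class's markers, 26 of the 40 had a ratio past 2-fold, and the interval lay above 0 for 20 of them.

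A few genes restricted to the choroid plexus were higher in TBI over many cells, and *Iqub* and *Dync1i1* were chosen from them after their values were seen. *Iqub*, a protein of ciliated cells, had 4 UMIs in 4 Sham cells and 51 UMIs in 33 TBI cells (log2 2.29, 1.00 to 4.38), and 2.55 without the cells of other classes. *Dync1i1*, a dynein intermediate chain, had 11 UMIs in 11 Sham cells and 78 UMIs in 48 TBI cells (1.55, 0.68 to 2.66), or 32.4 and 98.2 CPM against less than 1 CPM in other cells. The largest share of the TBI UMIs in 1 cell was 7.84% for *Iqub* and 5.13% for *Dync1i1*.

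*Dlk1* (an imprinted gene for a membrane protein related to Notch ligands; chr12:109452823-109463336, plus strand, mm10) was at 0 of 339559 Sham UMIs, which allows up to 8.83 CPM, and at 364 CPM in TBI. Nearly all of its 289 UMIs came from 3 cells, with 122, 95 and 70 UMIs. Those 3 cells held 10682 to 14745 UMIs, 34.7% to 38.5% *Ttr* and 6 or 7 of the 7 rule genes, and none met another class's markers or was a predicted doublet. Outside choroid plexus cells the TBI library had 32 *Dlk1* UMIs in 16 cells, at most 6 in a cell.

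Of the 38 genes at least 2-fold lower in TBI, 14 had a higher level in the other filtered cells (33.6% of all 2635 genes had), and 31 were also past 2-fold without the cells of other classes, each with an interval below 0. The lowest ratios belonged to *Chgb*, a granin of endocrine cells, whose 50 Sham UMIs were all in 1 cell, and to the hemoglobin genes *Hba-a1* (345 and 22.7 CPM), *Hba-a2* and *Hbb-bs*, which were also lower in the other cells of TBI. The class II gene *H2-Ab1* came next, and *Cd74* closed the 10 lowest, with 546 of 566 Sham UMIs in 1 cell. Of the 10 lowest ratios, that of *Atp2b3* came from a gene with a level above that of other cells and UMIs spread over many cells.

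Interferon induced genes were low in choroid plexus cells. Of 24 with at least 10 UMIs, *Ifi27* alone was higher than in other cells, at 1051 CPM in Sham and 975 CPM in TBI against 113 and 166 CPM. *B2m*, the invariant chain of MHC class I, stood at 64.8 and 127 CPM against 1647 and 1583 CPM, and *H2-K1* at 94.2 and 111 CPM against 2011 and 1861 CPM. The list had a median log2 ratio of 0.459, with 16 genes above 0 and 8 below. Of its 10 members with at least 50 UMIs, 1 was at least 2-fold higher, against 1.52% of all genes, and 0 were lower. It was *Bst2*, at a log2 ratio of 1.13, which was 0.32 without the cells that met another class's markers. Over the same 24 genes the median was −0.926 without the cells that met another class's markers, but a Sham cell that met no other class's markers held 546 *Cd74* UMIs and 126 of the 661 Sham UMIs of the list. With that cell left out as well, the median was −0.0251 and 13 of 24 genes were below 0, so no direction is read from this list. Of 36 inflammatory mediators, 9 were at 0 UMIs and the 13 with at least 10 UMIs had a median of −0.00341. *Vcam1*, an adhesion molecule of the choroid plexus, stood at 112 and 121 CPM.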

How the data were processed

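The authors deposited 1 matrix of UMI counts per library (10x Genomics 3′ v2 chemistry, 32285 gene rows), made with Cell Ranger and not normalized. The submitters' processing notes name Cell Ranger 2.1.1, Seurat 3.9.9, DESeq2 1.30.0 and build mm10, while the matrix headers give cellranger 3.1.0. Only the deposited counts were used. Cells were filtered and chosen as stated above. UMIs were summed over the chosen cells of a library and divided by their total, giving UMIs per 1000000 UMIs (CPM), and the log2 ratio of TBI over Sham had 0.5 UMIs added to each sum and an exact conditional binomial interval. Such a sum is weighted towards the deepest cells. Ratios were counted past 2-fold over genes with at least 50 UMIs, and medians of lists were taken over members with at least 10 UMIs. A gene at 0 UMIs was given a limit of 3 UMIs of the total. With 1 library per group, from 1 pool of 5 mice, no count model was fitted and no p-value was computed.

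Cell classes were defined by at least 3 markers with a UMI. Doublets were predicted within each library by simulated mixing, over 30 principal components of 2000 variable genes, and were kept in the main values. Genes were named from 30 fixed lists, from the 20 highest levels, the 20 highest ratios over other filtered cells (at least 100 UMIs), the 10 largest log2 ratios in each direction and the 15 genes that varied most between cells beyond counting error. The members and lists were chosen with earlier results of these data known. The alternatives tried were other limits of the rule, other scalings and denominators, thinning to 2000 UMIs, and leaving out predicted doublets or cells with other classes' markers. Those on cells with few mitochondrial UMIs, on the deepest cells and on cells with 50 or more *Cd74* UMIs were added after the data were seen. Computation used Python 3.11.15 with numpy 2.4.6, pandas 2.3.3, scipy 1.17.1, scikit-learn 1.9.0 and matplotlib 3.10.9, and was tested on simulated data. Gene coordinates are those of GENCODE vM21 on mm10, and promoter sequences are from RefSeq on GRCm38.p6. A few members of the lists are not reported here by name.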

Additional observations from a re-analysis of the deposited data

Results flagged for a closer look

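In choroid plexus cells the summed ion and water transport genes had a log2 ratio of TBI over Sham of −0.424, and in all other filtered cells the ratio was 0.498. The summed hormone and growth factor receptors stood at −0.425 in choroid plexus cells and 0.285 in other cells. *Kl*, which the rule used, led that sum. Without it the ratios were −0.233 (−0.424 to −0.0383) and 0.284, and the median of the receptors in choroid plexus cells was 0.109. The mitochondrially encoded genes stood at −0.238 and 0.556. In each of these 3 sums the direction was opposite in choroid plexus cells and in other cells. It was also opposite for choroid plexus markers outside the rule (−0.248 and 0.884) and secreted proteins (−0.186 and 0.505). The same held for ER genes (−0.388 and 0.151) and for solute transport without rule genes (−0.235 and 0.957). Other lists, such as metal and redox genes (0.116 and 0.205), had 1 direction. Fibroblast-marker cells were 110 of 2043 filtered cells in Sham and 757 of 3773 in TBI. With 1 library a group, these differences were not tested.

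*Ttr* was present in barcodes with more than 50% hemoglobin UMIs, which no comparison of choroid plexus cells used. It stood at 577 CPM of the UMIs without hemoglobin in the 562 such barcodes of Sham and at 1504 CPM in the 391 of TBI.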

How the results depend on the processing

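The difference in the share of choroid plexus cells was −0.0498 points without cells under 0.3% mitochondrial UMIs, −0.207 with only cells at 1% or more, −0.407 without the cells under 0.3% and those of other classes, and −0.42 among cells with no *Ptprc* UMI, while the other alternatives gave 0.144 to 1.18. Against 40 higher and 38 lower genes, the counts were 140 and 93 by the mean over cells of counts per 10000, 10 and 5 with thinning to 2000 UMIs, 196 and 222 at a minimum of 20 UMIs and 13 and 13 at 100 UMIs. The lower count was 23 without cells under 0.3% and 24 with only cells at 1% or more, and the higher count was 15 without the cells under 0.3% and those of other classes. The interferon median was −0.488 without cells of other classes, over the members that still had 10 UMIs, −0.596 without those and the cells under 0.3%, −0.0441 without cells of other classes and those with 50 or more *Cd74* UMIs, 0.111 without predicted doublets and 0.899 at 1% or more. *Ttr* outside choroid plexus cells was 66.8 and 168 CPM in B-marker cells, 577 and 1504 CPM in red cell barcodes and 62.8 and 152 CPM in cells with none of the 7 other rule genes. The cause of these shifts was not tested.

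For 65 named genes under 14 alternatives, 765 of 910 values stayed within the counting interval, 131 moved and 14 changed the sign of a 2-fold ratio. Those were *Igfbp4* (−0.0525 without cells of other classes and −0.171 without those and the cells under 0.3%), *Lyz2* (−2.34 and −2.31) and *Chgb* (0.501 and 0.808, and 0.425 at 1% or more), with *Bst2* (−0.16) and *Txnip* (−0.167) without both, and *Cd74* (4.29) and *H2-Ab1* (5.26) at 1% or more. Without cells of other classes and those with 50 or more *Cd74* UMIs, *Igfbp4* was at −0.117, *Chgb* at 0.437 and *Cd74* at 1.00.

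No paired analysis was possible because each group is 1 library, so the groups share only 1 replicate number. The depth limits sparse genes, since a gene at 0 UMIs is limited to 8.83 CPM in Sham and 3.78 CPM in TBI.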

Other observations

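Metal and redox genes were abundant in choroid plexus cells. *Mt3* stood at 4412 CPM in Sham and 4690 CPM in TBI. *Mt1*, a metallothionein induced by metals and glucocorticoids, stood at 138 and 258 CPM (log2 0.89, 0.44 to 1.39). *Ftl1*, the light chain of ferritin, stood at 1337 and 1840 CPM (0.46), and at a log2 ratio of 0.20 without the cells of other classes. *Gpx4*, which reduces lipid peroxides, was close to level at 2677 and 2567 CPM. Of 26 such genes with at least 10 UMIs, 17 were above 0 and 9 below, with a median of 0.138, which was −0.052 without the cells under 0.3% mitochondrial UMIs. Of the 24 with at least 50 UMIs, *Gpx3* and *Txnip* were at least 2-fold higher, against 1.52% of all genes, and without the cells of other classes they were at 0.84 and 0.03.

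Stress and dissociation genes had a median log2 ratio of 0.249 over 20 genes, 15 of them above 0. None of the 8 members with at least 50 UMIs was past 2-fold. The cytosolic chaperones *Hspa8* and *Hsp90ab1* stood at 0.23 and 0.27, while *Hsp90aa1* stood at −0.37. The immediate early gene *Jun* had 3 Sham and 34 TBI UMIs (log2 2.08, 0.61 to 4.62, and 0.50 without the cells of other classes).

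*Cox8b*, a cytochrome oxidase subunit best known from muscle and brown fat, was 296 times higher than in other cells, with 71 UMIs in 17 Sham cells and 164 UMIs in 40 TBI cells. *Gm42418*, *Ttr* and *Malat1* varied most between choroid plexus cells beyond counting error, followed by *Cd74*.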
